A study of Mus musculus with 12 samples.

Results

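The genes examined were 9 C-type lectin receptors of myeloid cells: Clec4d, Clec4e, Clec4n, Clec7a, Clec5a, Clec4a1, Clec4a2, Clec4a3 and Clec12a. They were taken from a table of 55281 genes by their symbols, and all 9 passed the filter on low counts. The family was chosen by the CPM of these same libraries, in which Clec4d was among the largest rises between the groups. The Clec4d values are therefore given as a description, without a test, and counts of genes that passed a test cover the 8 other receptors. These 8 were chosen with earlier results of these data known. They correlated with Clec4d at Pearson r of 0.83 to 0.93 in log2 CPM over 11 libraries. Their counts are therefore not independent of the choice of the family.

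RNA was sequenced from gonadal white adipose tissue (GWAT) of male mice in 4 groups of 3 libraries, each library a pool of tissue from 3 mice. HoipA-KO mice (Hoip fl/fl AdipoQ.Cre+) carried a Cre driven by the adiponectin promoter, which deletes Hoip (Rnf31) in mature adipocytes, and WT mice (Hoip fl/fl AdipoQ.Cre-) carried the same floxed alleles without Cre. From 6 weeks of age the animals ate a control diet (CD) with 14% fat or a high-fat diet (HFD) with 60% fat for 16 weeks, so that tissue came from mice of 22 to 24 weeks. Pooling was needed to obtain enough fat from HoipA-KO mice and was applied to WT mice as well. The p-values below measure the spread between such pools.

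C-type lectin receptors of this kind sit on macrophages, monocytes, dendritic cells and neutrophils, and bind sugars or lipids of microbes and material released by dying cells. Activating members lack a signaling tail and pair with the adaptors Fcer1g or Tyrobp, or carry their own tyrosine motif as Clec7a does. Through the kinase Syk and the scaffold protein Card9 they switch on NF-κB target genes. Clec4a2 and Clec12a instead carry an inhibitory motif that recruits phosphatases. In obese fat, macrophages gather around dying adipocytes, and Clec4e is known as a receptor of these cells.

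Levels are given as CPM (counts scaled to a common library size, with the trimmed mean of M values, TMM). Total estimated counts ranged from 30513500 to 60540260 per library, at which 3 counts equal 0.0533 to 0.0996 CPM. WT CD replicate 3 correlated with the other WT CD libraries at Pearson r = 0.793 and 0.795, and it was left out of the tests. The 2 WT CD libraries that were kept correlated at 0.904, against 0.971 to 0.993 within the other groups. WT CD replicate 2 and HoipA-KO HFD replicate 1 carried RNA of epididymal epithelium, with summed markers of 19351 and 1611 CPM. Rnf31 itself stood at 12.8 to 21.2 CPM in WT CD and 17.7 to 21.8 CPM in HoipA-KO CD libraries, and counts over the whole transcript in whole tissue do not check a deletion in adipocytes.

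All 9 receptor genes lie on mouse chromosome 6 (GRCm38 coordinates, GENCODE M21 annotation). A stretch of 368023 bases from Clec4a1 to Clec4e holds 9 protein-coding genes, of which 6 are among the receptors studied here. Clec4n (chr6:123229843-123247021, plus strand), Clec4d (chr6:123262111-123275265, plus strand) and Clec4e (chr6:123281789-123289870, minus strand) are direct neighbors, and Clec4d and Clec4e point toward each other. Clec4a1 (chr6:122921848-122934619), Clec4a3 (chr6:122952515-122969875) and Clec4a2 (chr6:123106428-123143999) lie on the plus strand of the same stretch. Clec12a (chr6:129342691-129365303, plus strand) and Clec7a (chr6:129461591-129472779, minus strand) form part of a second group of lectin genes, with Clec12b and Olr1 as neighbors, and Clec5a (chr6:40574894-40585821, minus strand) stands alone.

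To show the DNA in front of the genes with the largest fitted differences on CD over 11 libraries (with all 12, Clec12a and Clec4a2 stood above Clec4e), the 250 bases upstream of the RefSeq start sites of Clec4d, Clec7a and Clec4e are printed 5′ to 3′ on the strand of the gene (GRCm38.p6). Capitals mark the letters GAGGAA on either strand (TTCCTC when read on the other), the core bound by PU.1-type ETS factors of myeloid cells, and in Clec4e also TTGCNNAA on either strand, the C/EBP motif. The motifs do not overlap. The Clec4d window is chr6:123261857-123262106 (plus strand), the Clec7a window is chr6:129472780-129473029 (minus strand) and the Clec4e window is chr6:123289872-123290121 (minus strand).
Clec4d: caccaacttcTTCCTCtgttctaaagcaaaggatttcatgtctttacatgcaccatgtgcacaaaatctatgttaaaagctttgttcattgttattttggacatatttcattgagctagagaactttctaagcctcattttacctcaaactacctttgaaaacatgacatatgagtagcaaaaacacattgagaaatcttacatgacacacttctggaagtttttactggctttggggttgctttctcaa
Clec7a: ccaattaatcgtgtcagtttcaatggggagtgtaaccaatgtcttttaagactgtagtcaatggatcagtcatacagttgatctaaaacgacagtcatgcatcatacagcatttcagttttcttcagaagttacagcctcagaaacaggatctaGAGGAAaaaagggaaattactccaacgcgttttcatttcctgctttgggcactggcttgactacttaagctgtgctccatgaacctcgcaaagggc
Clec4e: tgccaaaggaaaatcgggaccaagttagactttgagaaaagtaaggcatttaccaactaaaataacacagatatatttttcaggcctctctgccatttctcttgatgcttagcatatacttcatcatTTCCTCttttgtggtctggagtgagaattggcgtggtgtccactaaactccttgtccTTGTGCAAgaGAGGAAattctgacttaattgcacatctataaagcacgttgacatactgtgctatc

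RefSeq windows were present for 8 of the 9 receptors, all but Clec4n, in 10 windows because Clec4a3 and Clec7a have 2 start sites each. The windows of each pair overlap, and those of Clec7a lie 6 bases apart and hold the same PU.1-type letters. The PU.1-type letters occurred in 7 of the 8 genes, against 25.9% of all 27025 genes with windows of the same length. The C/EBP letters occurred in 2 of the 8 genes (Clec4e and Clec12a) against 10.8% of all, and TGANTCA, the AP-1 motif, in 1 (Clec12a) against 7.82%. The NF-κB motif, CACGTG (the E-box of MiT/TFE factors) and the interferon response motif were in none of the 8 genes and in 1.65%, 6.86% and 3.46% of all. A match describes the letters only.

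HOIP loss in adipocytes on the control diet was examined first. Clec4d, which with Clec4e forms a receptor for glycolipids, stood at 1.90, 0.434 and 0.705 CPM in the 3 WT CD libraries and at 194, 304 and 177 CPM in the 3 HoipA-KO CD libraries. Even the lowest HoipA-KO library was far above the highest WT library. The fitted difference was 7.65 ± 1.26 (log2, SE), rank 27 of 18427 tested genes and rank 6 of the 9861 with a mean of at least 10 CPM. The fitted value was 9.04 without WT CD replicate 1, the WT library with most Clec4d.

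Clec7a, the β-glucan receptor, stood at 6.85, 6.45 and 4.60 CPM in WT CD and at 285, 268 and 206 CPM in HoipA-KO CD, a log2 fold change of 5.29 ± 0.62 (SE). The quasi-likelihood test of edgeR gave an adjusted p of 0.000514 (Benjamini-Hochberg over all tested genes), and this test is the source of all adjusted p-values here. Clec12a, an inhibitory receptor for uric acid crystals, stood at 9.19, 9.81 and 5.94 CPM in WT CD and at 193, 196 and 191 CPM in HoipA-KO CD, a log2 fold change of 4.39 ± 0.50 (edgeR adjusted p = 0.000495). These 3 HoipA-KO CD libraries spanned a 1.03-fold range for Clec12a, while those for Clec4d spanned 1.72-fold.

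Clec4e, the partner of Clec4d and a sensor of dying cells, was the scarcest receptor at 0.195, 0.130 and 0.408 CPM in WT CD and 2.63, 5.71 and 1.88 CPM in HoipA-KO CD. It rose by 4.43 ± 0.75 (log2; edgeR adjusted p = 0.00205), and its lowest library held 6 counts. Clec4n, a receptor for mannans, stood at 2.34, 2.17 and 1.60 CPM in WT CD and 9.58, 24.3 and 9.13 CPM in HoipA-KO CD, a rise of 2.73 ± 0.67 (edgeR adjusted p = 0.0112). HoipA-KO CD replicate 2 was the highest library for Clec4d, Clec4e and Clec4n alike. Without WT CD replicate 2 the adjusted p of Clec4n became 0.0528 (edgeR), the single call lost among these 8 when any library was left out.

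Clec5a, which signals through Tyrobp and Hcst, stood at 1.66, 1.72 and 0.909 CPM in WT CD and 7.07, 8.20 and 5.36 CPM in HoipA-KO CD, a rise of 2.07 ± 0.31 (log2; edgeR adjusted p = 0.00109). The inhibitory Clec4a2 stood at 6.04, 5.71 and 5.44 CPM in WT CD and 99.9, 117 and 85.8 CPM in HoipA-KO CD, a rise of 4.15 ± 0.39 (edgeR adjusted p = 0.000452). Its relatives Clec4a3 and Clec4a1 rose by 3.43 ± 0.36 and 2.46 ± 0.29. Estimated counts of Clec4a2 were not whole (beyond 0.01) in 9 of 12 libraries, as happens when reads match several sequences, so its level is uncertain to that extent, whereas those of the other 8 receptors were whole throughout.

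All 8 receptors besides Clec4d thus rose with HOIP loss on CD, with 11 or with all 12 libraries, against 18.9% of all tested genes called higher with 11 and 15.6% with 12. Their median log2 fold change was 3.79 beside −0.06 over all genes. For these 8 receptors every HoipA-KO CD library exceeded every WT CD library, as was so for 19.9% of tested genes. The group held activating and inhibitory receptors alike.

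**Figure D1:**
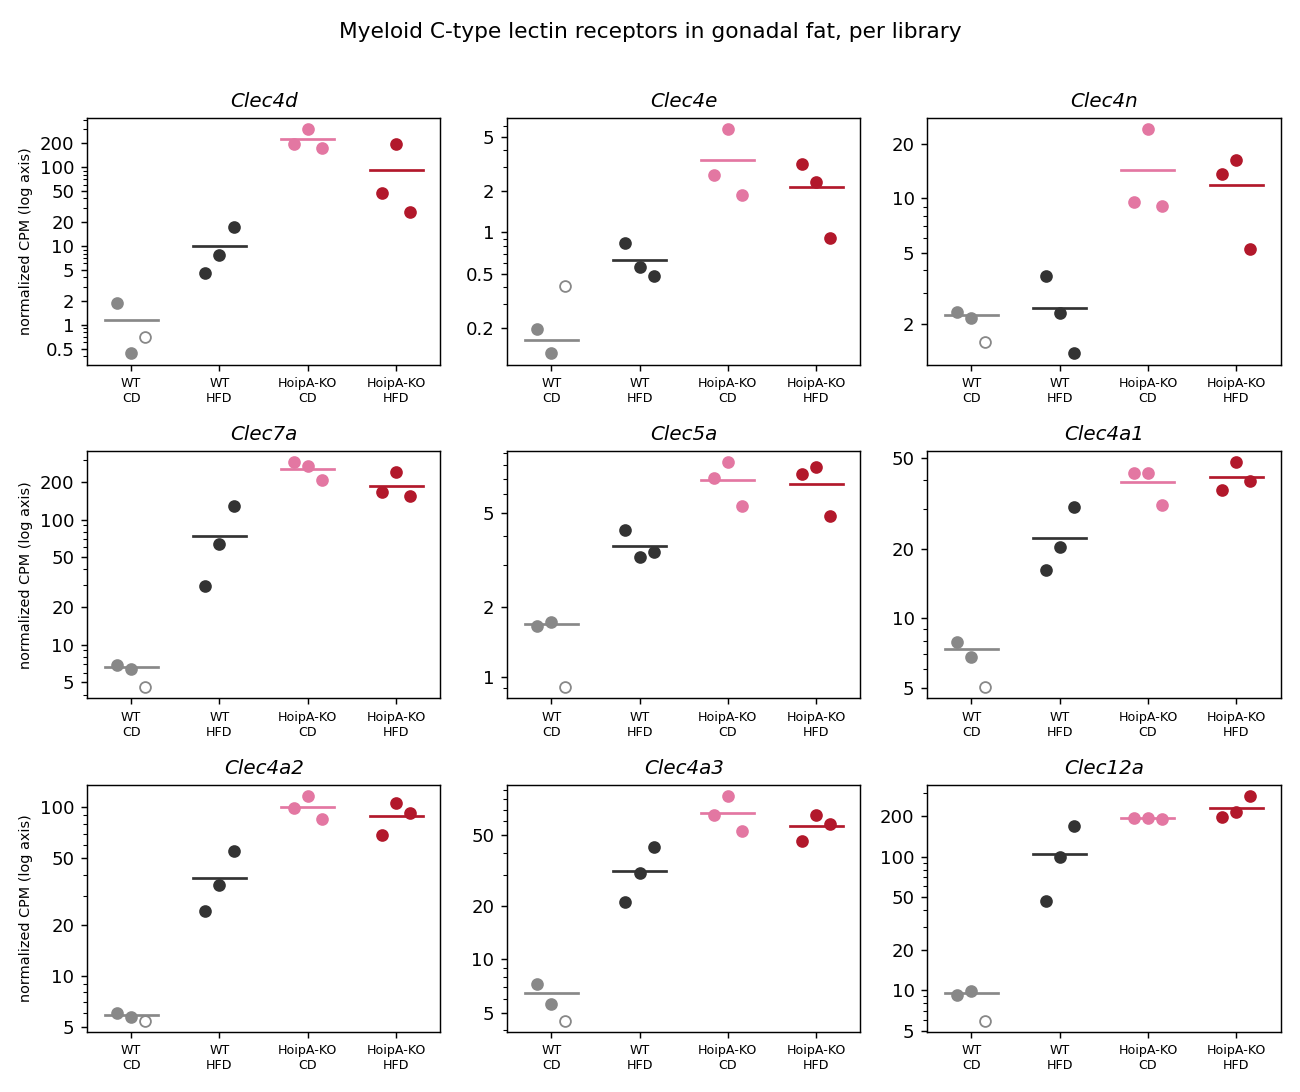
Normalized CPM (log axis, a scale of its own in each panel) of the 9 receptors in each library by group. Points are libraries, lines are group means, and the open point is WT CD replicate 3, which is in no test and no mean. The WT CD points lie lowest in each panel except for Clec4n, whose WT HFD libraries overlap with WT CD, and HoipA-KO points lie above those of WT on the same diet.

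Macrophage markers moved with these values. The 9 markers summed to 316 to 511 CPM in WT CD and 4766 to 5322 CPM in HoipA-KO CD, and 8 of 9 were called higher (Cd68 by 5.86, Adgre1 by 4.92), with Mertk at 0.71 not called. In bulk tissue, more cells of a type and more RNA per cell cannot be told apart. Of the other myeloid lists, 1 of 4 monocyte markers (Ccr2), 1 of 8 neutrophil markers (Csf3r, which monocytes share) and 3 of 6 dendritic cell markers were higher, with Siglech lower. Over all tested genes 18.9% were called higher and 18.8% lower. With all 12 libraries 2 of the 6 dendritic cell markers were called higher. Neutrophil markers summed to 4.42 to 7.46 CPM in WT CD and 14.0 to 28.0 CPM in HoipA-KO CD, with up to 4 of the 8 at no more than 3 counts in a library. Of 8 adipocyte markers 7 were lower. The part of each cell type in the receptor values was not tested.

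Each receptor was therefore also set against the macrophage markers, as the log2 CPM of the receptor minus the mean log2 CPM of the 9 markers in the same library. No prior was added before the log. A first version with a prior of 1 CPM was replaced after its values had been seen, because the prior outweighs levels below 1 CPM such as those of Clec4e. These differences are descriptions, since 3 against 3 libraries cannot go below an exact permutation p of 0.10. Clec4d lay at −4.31, −6.07 and −5.14 on this scale in WT CD and at −0.96, −0.27 and −1.11 in HoipA-KO CD, a mean difference of 4.41 over 11 libraries. Clec7a differed by 1.74, Clec12a by 0.85 and Clec4a2 by 0.59, and in these 3 the groups did not overlap, as was so in this direction for 1.24% of tested genes. Of these 3 and Clec4d, only Clec4d and Clec7a kept this direction when the 3 markers Adgre1, Cd68 and Csf1r replaced the 9 (3.19 and 0.52), while Clec12a and Clec4a2 turned to −0.37 and −0.63.

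Against the 9 markers Clec5a and Clec4a1 were lower in every HoipA-KO CD library than in every WT CD library, by −1.49 and −1.10, a direction shared by 90% of tested genes. Clec4e (0.76), Clec4n (−0.98) and Clec4a3 (−0.12) overlapped between the groups. With the 3 markers the difference was −2.71 for Clec5a, −2.32 for Clec4a1, −2.21 for Clec4n, −1.35 for Clec4a3 and −0.47 for Clec4e. With the prior of 1 CPM and all 9 markers Clec4e turned to −1.60, Clec4n was −1.33 and Clec5a −1.89, each lower in every HoipA-KO CD library, and Clec4a2 (0.45) overlapped. The direction for Clec4e therefore rests on the prior and on the markers chosen. Among the 9 receptors the genotype difference was highest for Clec4d and lowest for Clec5a with either set of markers and with the prior. The place of Clec4d is a description, since its rise in these libraries chose the family.

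**Figure D2:**
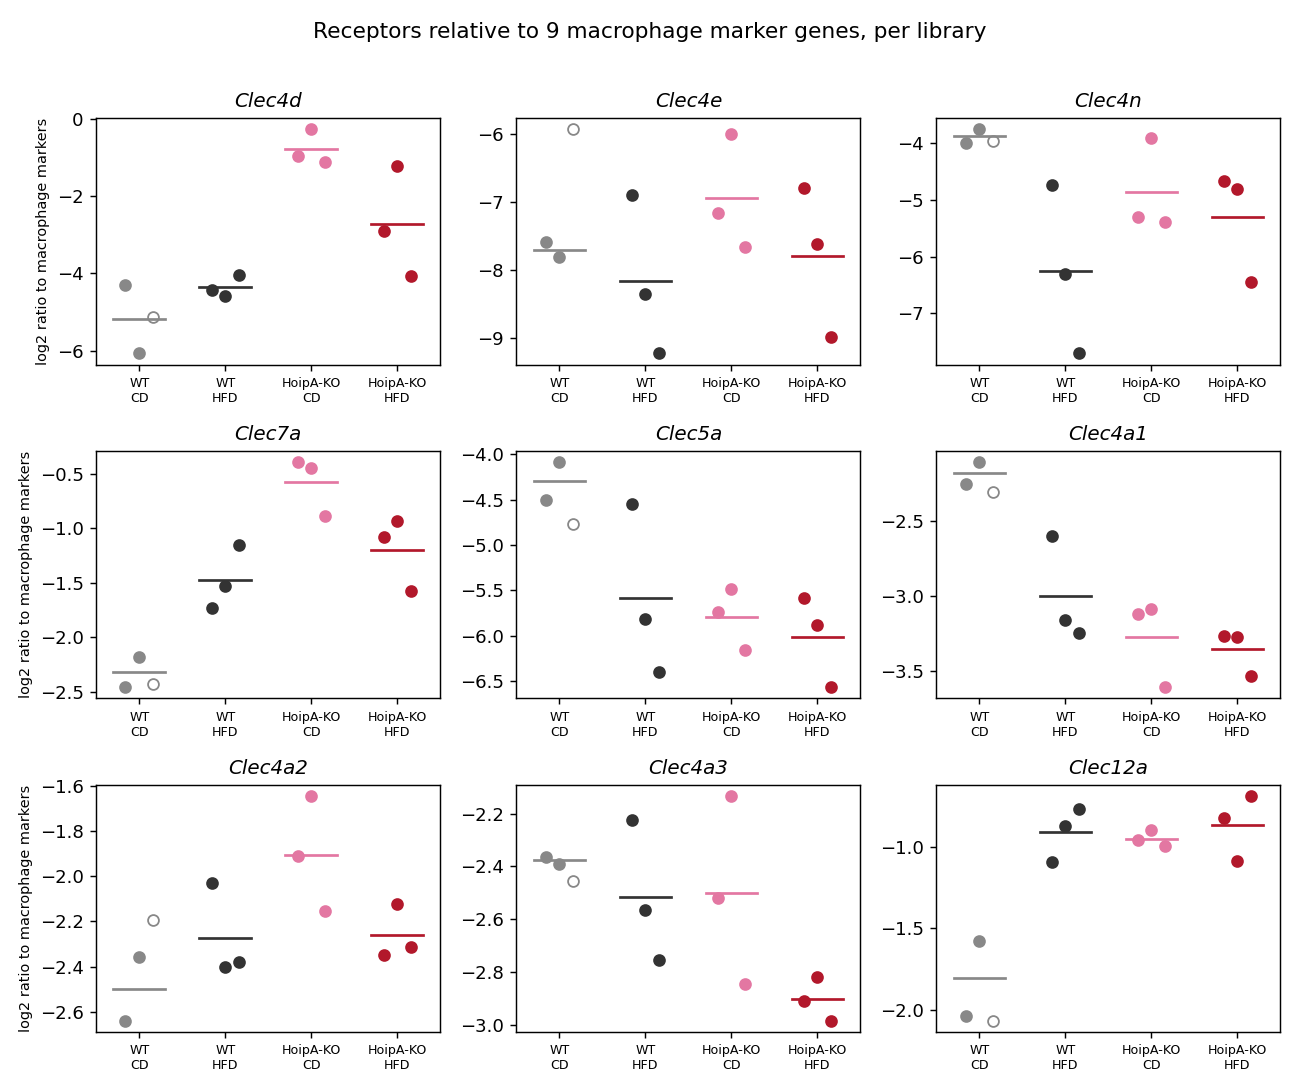
Log2 ratio of each receptor to the mean of 9 macrophage markers in each library by group, with 1 panel per receptor. Points are libraries, lines are group means, and the open point is WT CD replicate 3, left out of the means. Clec4d sits between −1.11 and −0.27 in HoipA-KO CD and between −6.07 and −4.31 in WT CD, while Clec5a and Clec4a1 run the other way.

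HOIP loss on the high-fat diet was compared next. Clec4d stood at 4.58, 7.65 and 17.5 CPM in WT HFD and at 47.1, 198 and 27.1 CPM in HoipA-KO HFD, a log2 difference of 3.22 ± 0.84 (SE). Replicate 2 of HoipA-KO HFD matched the CD level of that genotype, and the other 2 libraries lay well below. Without it the fitted value was 1.90. The 3 HoipA-KO HFD libraries spanned a 7.31-fold range for Clec4d, against 1.31-fold to 3.48-fold for the other receptors in this group.

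Of the 8 other receptors 3 were called higher in HoipA-KO than in WT on HFD, against 4.2% of all genes. Clec4n stood at 3.72, 2.31 and 1.382 CPM in WT HFD and 13.7, 16.4 and 5.26 CPM in HoipA-KO HFD, a rise of 2.28 ± 0.56 (log2; edgeR adjusted p = 0.0336). Clec4a2 rose by 1.25 ± 0.29 (edgeR adjusted p = 0.0288) and Clec4a1 by 0.90 ± 0.24 (edgeR adjusted p = 0.0413). Clec4e (1.79), Clec7a (1.35), Clec12a (1.17), Clec5a (0.89) and Clec4a3 (0.86) had adjusted p between 0.0510 and 0.0711 (edgeR).

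The count of 3 became 0 without WT HFD replicate 1, WT HFD replicate 2 or HoipA-KO HFD replicate 2. It became 1 when either HoipA-KO HFD replicate 3 or HoipA-KO CD replicate 1 was dropped, and 5 when WT HFD replicate 3 was. With all 12 libraries only Clec4a2 was called (0.531% of all genes), and with DESeq2 all 8 were (12.9% of all genes). The values themselves did not overlap: for these 8 receptors every HoipA-KO HFD library exceeded every WT HFD library, as for 20.6% of tested genes. Macrophage markers summed to 1184 to 3562 CPM in WT HFD and 4337 to 5872 CPM in HoipA-KO HFD, and 5 of 9 were called higher (0 of 9 with all 12 libraries). Neutrophil markers summed to 103 CPM in HoipA-KO HFD replicate 1 and 13.9 to 26.5 CPM in the other 5 HFD libraries, and their part in the receptor values was not tested.

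The high-fat diet in WT mice raised most of the same receptors. Clec7a went from the WT CD values above to 29.7, 63.3 and 129 CPM in WT HFD, a log2 fold change of 3.49 ± 0.57 (edgeR adjusted p = 0.00695). Clec12a reached 46.3, 99.8 and 169 CPM, a log2 fold change of 3.48 ± 0.48 (edgeR adjusted p = 0.00617). Clec4a2 rose by 2.71, Clec4a3 by 2.31, Clec4a1 by 1.62 and Clec5a by 1.12, which makes 6 of 8 called, against 9.35% of all genes called higher. This comparison and that of the genotypes on CD share the WT CD libraries.

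Clec4e (1.93 ± 0.69, edgeR adjusted p = 0.0869) and Clec4n (0.14 ± 0.61, edgeR adjusted p = 0.900) did not pass. Clec4e stood at 0.830, 0.557 and 0.482 CPM in WT HFD, above all WT CD libraries, and Clec4n overlapped between the diets. For 7 of the 8 receptors besides Clec4d the WT diets did not overlap, as for 17.1% of tested genes. Clec4d was higher on HFD by 3.12 ± 1.03 (log2, SE), and by 4.54 without WT CD replicate 1. When only the WT CD and WT HFD libraries were fitted, no gene of 17200 passed the edgeR test, while 4666 genes and 7 of the 8 receptors had an unadjusted p under 0.05. Without WT CD replicate 2 the count was 4 of 8, and without both libraries rich in epididymal RNA it was 3.

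The WT HFD pools differed widely. Summed macrophage markers were 1184, 2235 and 3562 CPM in replicates 1, 2 and 3, and Clec7a, Clec12a, Clec4d, Clec4a1, Clec4a2 and Clec4a3 ranked these libraries in the same order. Clec4n and Clec4e ranked them in the opposite order. Relative to the macrophage markers Clec4n was lower in every WT HFD than in every WT CD library, by −2.37, and so was Clec4a1 by −0.82, as for 82.3% of tested genes. Clec12a and Clec7a were higher on that scale by 0.89 and 0.85, as for 0.895% of tested genes, but with the 3 markers they stood at −0.05 and −0.10 and overlapped.

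In HoipA-KO mice none of the 8 receptors passed edgeR's quasi-likelihood test for the diet in the fit of 11 libraries, which was not paired. In that fit 0% of 18427 genes were called in either direction. At an unadjusted p under 0.05 the test gave 415 genes and 0 of the 8 receptors, and DESeq2 called 7 genes and 0 of the 8 receptors. A fit of these libraries alone with same-numbered libraries as pairs, added after seeing the data, called 0 of 16826 genes by edgeR. It gave 1300 genes and 1 receptor, Clec7a, at an unadjusted p under 0.05. Log2 differences in the unpaired fit ran from −0.70 ± 0.53 for Clec4e to 0.26 ± 0.37 for Clec12a. Clec12a stood at 198, 217 and 284 CPM in HoipA-KO HFD and was the 1 receptor whose HFD libraries all exceeded the CD libraries of that genotype, as for 3.42% of genes. Clec4d differed by −1.32 ± 0.78 on HFD, and by −2.64 without HoipA-KO HFD replicate 2. Relative to the macrophage markers Clec4d lay at −2.89, −1.22 and −4.08 in these HFD libraries, all below the 3 CD libraries of the genotype, and Clec7a was lower in the same way by −0.62, as for 10.2% of tested genes. With the 3 markers Clec7a (−0.39) overlapped between the diets and Clec4d (−1.72) did not.

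**Figure D3:**
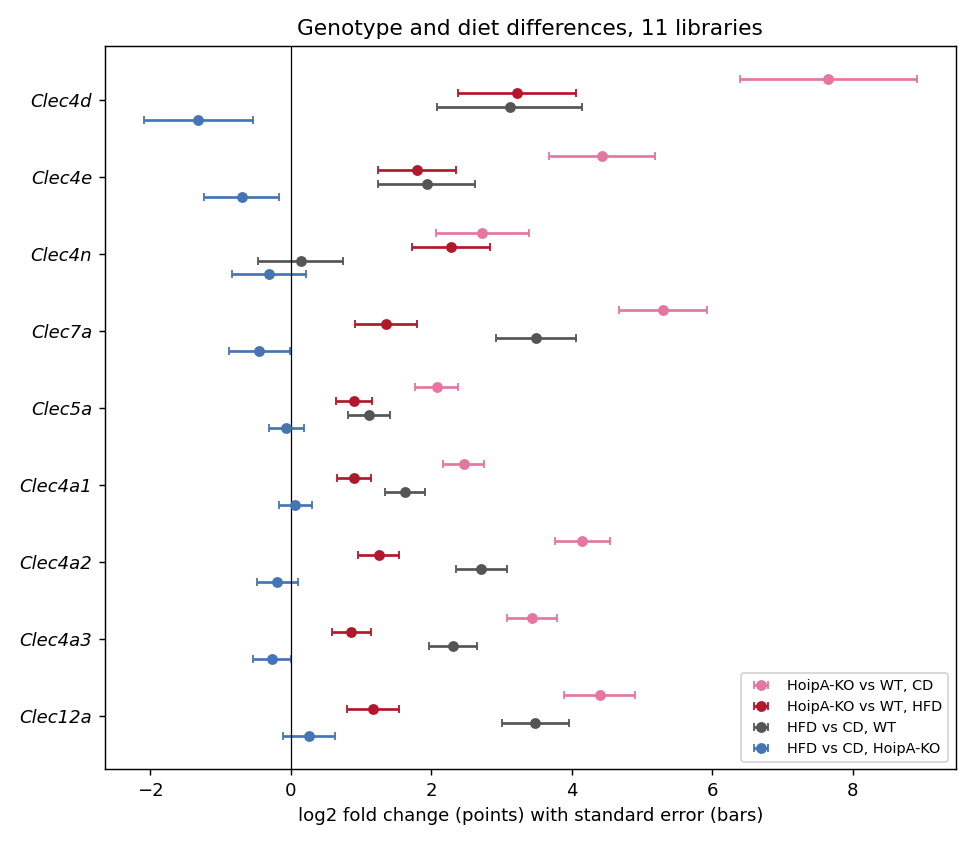
Log2 fold changes (points) with standard errors (bars) of the 9 receptors in 4 comparisons, fitted over 11 libraries. The genotype difference on CD is the rightmost point in each row, from 2.07 for Clec5a to 7.65 for Clec4d, and the diet difference in HoipA-KO lies between −0.70 and 0.26 for all receptors but Clec4d (−1.32).

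Whether the genotype difference itself changed with diet was tested as an interaction. The difference on HFD minus that on CD was −3.94 ± 0.69 for Clec7a, −3.23 ± 0.58 for Clec12a, −2.90 ± 0.45 for Clec4a2, −2.57 ± 0.43 for Clec4a3 and −1.56 ± 0.36 for Clec4a1. These 5 of 8 passed (edgeR adjusted p from 0.0256 to 0.0478), against 3.58% of all genes called in that direction. Clec4e (−2.63), Clec5a (−1.18) and Clec4n (−0.45) did not pass, and Clec4d stood at −4.43 ± 1.29, with −5.86 without WT CD replicate 1 and −3.64 without WT HFD replicate 3. The same 5 passed with all 12 libraries (edgeR adjusted p from 0.0131 to 0.0416). DESeq2 called 7 of the 8, among 2374 genes called in either direction. With the 2 libraries rich in epididymal RNA left out, 0 passed. None of the 5 passed without WT CD replicate 2 alone, WT HFD replicate 2, any 1 of the HoipA-KO CD libraries, HoipA-KO HFD replicate 1 or HoipA-KO HFD replicate 3.

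The receptors also differed in how far they resembled each other across the 11 libraries. Clec7a, Clec12a, Clec4a1, Clec4a2 and Clec4a3 correlated at Pearson r of 0.97 to 1.00 in log2 CPM, although Clec7a and Clec12a lie in another gene group than the Clec4a genes. Clec4e correlated with Clec4n at 0.95 and with Clec5a at 0.93, and Clec4n with Clec12a at 0.59, the lowest of the pairs. These values describe libraries that share group differences and tissue composition.

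Across all measured genes with a mean of at least 10 CPM (9868 compared over 11 libraries), those with a pattern most like Clec4d were Akr1b8 (r = 0.995), Creg1 (0.995), Pla2g7 (0.994), B430306N03Rik (0.994) and Arl6ip5 (0.992). Akr1b8, an aldo-keto reductase, ranged from 14.8 to 32.3 CPM in WT CD, 385 to 645 CPM in HoipA-KO CD, 30.9 to 84.7 CPM in WT HFD and 132 to 515 CPM in HoipA-KO HFD. Pla2g7, a secreted phospholipase that degrades platelet-activating factor, ranged from 17.7 to 34.5, 273 to 428, 33.5 to 77.5 and 103 to 355 CPM in the same groups.

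To compare levels between genes, CPM were divided by the length of the merged exons in kilobases. In WT CD the medians per kilobase were highest for Clec4a1 (4.36) and Clec4a3 (4.21), followed by Clec7a (2.44), with Clec4d at 0.441 in place 7 of 9. In HoipA-KO CD Clec4d was first at 121 (range 111 to 190), followed by Clec7a at 102 (range 78.0 to 108) and Clec4a3 at 49.4. These ranges of Clec4d and Clec7a did not overlap, but in CPM they did (177 to 304 and 206 to 285), and the mean was higher for Clec7a (253 against 225). The order of these 2 genes thus depends on the exon lengths used (1599 bases for Clec4d and 2638 for Clec7a). Clec4d was also the gene whose rise in these libraries chose the family. In HoipA-KO HFD Clec7a was first at 62.7, and Clec4d took place 5 at 29.5 with a range of 17.0 to 124 that took in the medians of the first 6 receptors. In WT HFD Clec7a (24.0) and Clec4a3 (23.3) led with overlapping ranges. Clec4e was last in all 4 groups, with a median of at most 0.529.

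**Figure D4:**
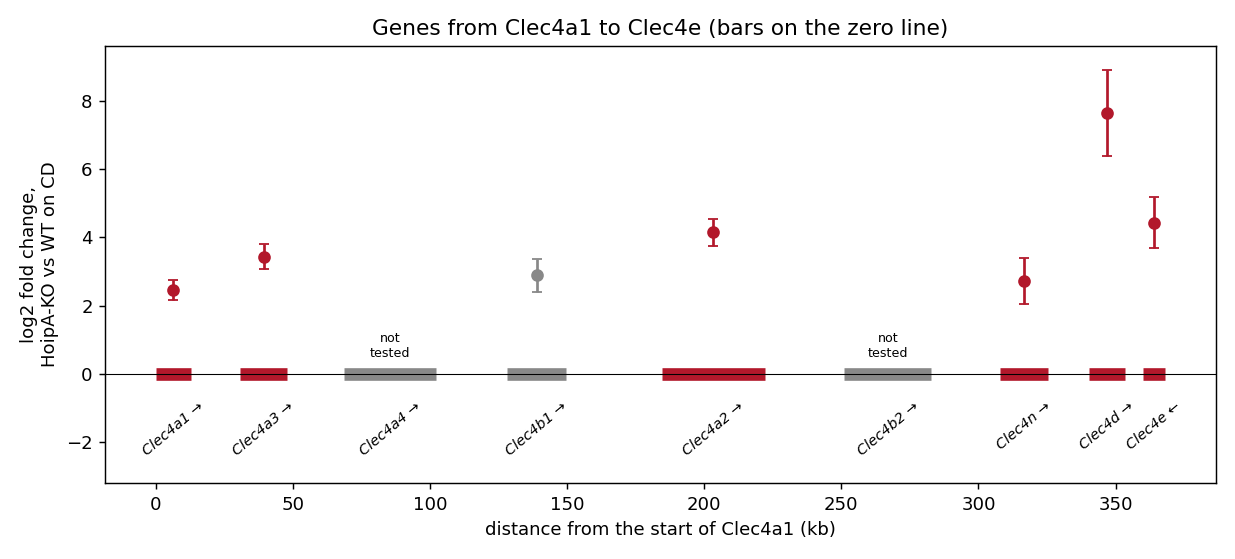
Log2 fold change with standard error (points and bars) of HoipA-KO against WT on CD for the genes from Clec4a1 to Clec4e, placed by distance in kilobases from the start of Clec4a1. Boxes on the zero line are gene bodies, arrows give the strand, red marks the receptors studied and gray other lectin genes. Clec4a4 and Clec4b2 did not pass the filter on low counts, and the tested genes lie between 2.46 and 7.65.

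Other lectin genes of the same stretch and elsewhere served as a comparison. Inside the stretch Clec4b1, which pairs with Fcer1g, rose by 2.89 on CD (edgeR adjusted p = 0.00188), from 1.45 to 2.10 CPM in WT to 11.4 to 13.7 CPM in HoipA-KO libraries. Clec4a4 and Clec4b2 stayed at no more than 0.220 and 0.0209 CPM in any library. Of 28 further C-type lectin genes 24 were tested on CD, with 8 higher, 4 lower and a median of 0.36, beside 18.9% of all tested genes higher and 18.8% lower. The share called lower was thus close to that over all genes. Olr1, a receptor for oxidized lipoprotein next to Clec7a, rose by 4.82, Cd72 by 3.29 and the collagen receptor Mrc2 by 3.18. Without WT CD replicate 2 these values were 5.86 for Olr1 and 4.45 for Cd72. The 4 that fell were Cd209b, Cd209d, Cd209f and Cd209g, from −1.65 to −2.64, relatives of the dendritic cell lectin DC-SIGN. Without WT CD replicate 1 only Cd209b among them was still called, and Cd209d (without HoipA-KO CD replicate 2) and Cd209f (without HoipA-KO CD replicate 1 or 2) were lost in other fits too. On HFD 1 was higher (Clec10a, 1.16) and 6 were lower (Cd209b, Cd209c, Cd209d, Cd209f, Cd209g and Mgl2), beside 4.2% and 7.62% of all genes. In WT mice 6 were higher on HFD, beside 9.35% of all genes. The 7 genotype calls on HFD became 0 without WT HFD replicate 1, WT HFD replicate 2 or HoipA-KO HFD replicate 2. They became 1 when HoipA-KO HFD replicate 3 was dropped and 4 when either HoipA-KO HFD replicate 1 or HoipA-KO CD replicate 1 was. The 6 for the diet in WT became 11 without WT CD replicate 1 and 3 without WT CD replicate 2 or WT HFD replicate 3. The Clec10a, Cd209 and Mgl2 genes are named because of these counts, after their values were seen.

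The adaptors and signaling genes downstream of the receptors were then examined. On CD 17 of 22 were higher in HoipA-KO and none was lower, with a median of 2.55, beside 18.9% of all tested genes called higher. The adaptor Tyrobp stood at 24.5, 19.0 and 13.7 CPM in WT CD and 617, 669 and 791 CPM in HoipA-KO CD, a rise of 5.04 ± 0.57 (edgeR adjusted p = 0.000493). The kinases Btk (4.66) and Syk (4.20) were also among the largest rises, and all 3 adaptors and all 5 kinases of the list passed. Like the receptors, most of these genes are expressed across myeloid cells.

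Of the 4 genes of the Card9 complex Bcl10 (1.03) and Malt1 (0.92) were called higher on CD, and Card9 (1.04 ± 0.69, edgeR adjusted p = 0.260) and Traf6 (0.05) were not. Card9 stood at 1.63, 15.2 and 1.73 CPM in WT CD and 15.2, 16.0 and 19.3 CPM in HoipA-KO CD, so that a single WT library, replicate 2 with its epididymal RNA, reached the HoipA-KO level. Without that library the fitted value of Card9 was 3.41. The call of Malt1 was lost in 9 of the 11 fits that left out 1 library (all but WT CD replicate 1 and HoipA-KO CD replicate 3). Among inhibitors Inpp5d, Dok3 and Ptpn6 rose by 3.36, 3.24 and 2.56, while Ptpn11 (−0.64) and Cblb (0.61) did not pass. Ptpn6 also stood high in WT CD replicate 2 (35.1 CPM, against 7.94 and 7.05 CPM in the other WT CD libraries), and its value was 3.99 without it and 1.84 without WT CD replicate 1. The genes of this complex and the inhibitors were singled out after their values were seen.

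On HFD 6 of the 22 were higher and 1 was lower in HoipA-KO, beside 4.2% and 7.62% of all genes. The 3 adaptors Hcst (1.88), Fcer1g (1.51) and Tyrobp (1.503) were among those higher, with Fgr, Vav1 and Dok3, and Ptpn11 was lower by −0.90. None of the 4 Card9 complex genes passed. The count of 7 became 0 without WT HFD replicate 2, 1 without WT HFD replicate 1 or HoipA-KO HFD replicate 2, 2 without HoipA-KO HFD replicate 3, 4 without HoipA-KO CD replicate 1 and 12 without WT HFD replicate 3. In WT mice HFD raised 11 of 22, beside 9.35% of all genes, including all 5 kinases (Btk by 3.12, Syk by 2.98).

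**Figure D5:**
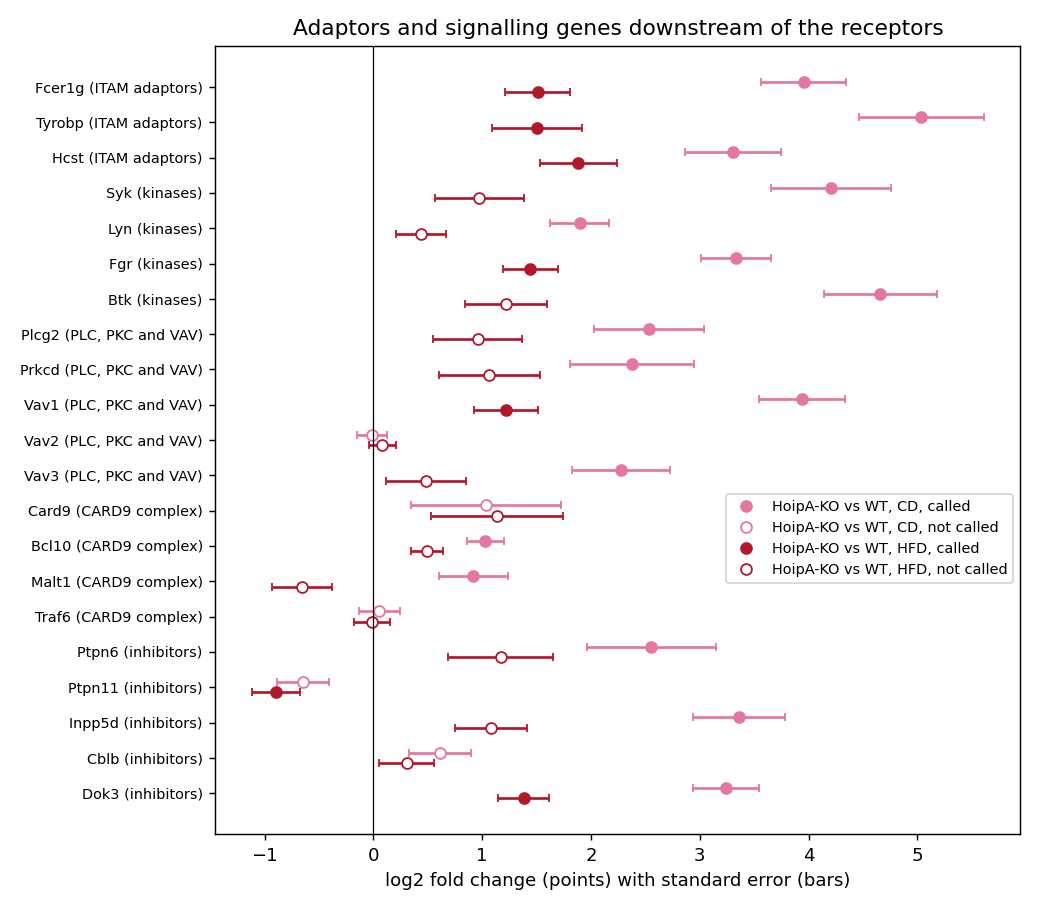
Log2 fold changes (points) with standard errors (bars) of 21 of the 22 adaptor and signaling genes, HoipA-KO against WT on CD and on HFD. Filled points passed edgeR's test at an adjusted p of 0.05 and open points did not. The adaptors and kinases shown lie between 1.89 and 5.04 on CD, while Card9, Traf6, Vav2, Cblb and Ptpn11 are open.

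Genes that these receptors can induce were read from a list of 19, of which 17 were tested. On CD 13 were higher in HoipA-KO and 1, Nos2, was lower (−1.52), with a median of 2.93, beside 18.9% of all genes higher and 18.8% lower. The call of Nos2 was lost when HoipA-KO CD replicate 2, HoipA-KO CD replicate 3 or WT CD replicate 1 was dropped. That of Il6 was lost in 7 fits that left out 1 library, and those of Il1b and Cxcl1 in 3 each. With all 12 libraries 11 of 16 were higher and 0 lower, beside 15.6% of all genes called higher. There Il1b was not called, and Egr3 stood at −0.66 instead of 1.95. Il6, Il1b, Cxcl1 and Egr3 are named because of these changes. Il1rn, the antagonist of the IL-1 receptor, stood at 0.512, 1.498 and 0.872 CPM in WT CD and 95.4, 232 and 85.9 CPM in HoipA-KO CD, a rise of 7.14 (edgeR adjusted p = 0.000513), or 8.12 without WT CD replicate 2. The chemokine genes Ccl3 and Ccl4 rose by 6.11 and 4.03, to 11.7 to 13.7 and 2.51 to 3.13 CPM. Il12b also passed the test, but it reached only 0.285 to 0.822 CPM in HoipA-KO CD and was at or near 0 in WT CD. On HFD 3 of 17 passed, Il10, Cxcl2 and Ccl3 (the first 2 named after their values were seen), beside 4.2% of all genes. In WT mice 8 were higher on HFD, beside 9.35%. The 3 became 0 without WT HFD replicate 1, WT HFD replicate 2 or HoipA-KO HFD replicate 2. They became 1 when either HoipA-KO HFD replicate 3 or HoipA-KO CD replicate 1 was dropped, and 6 without WT CD replicate 1 or 2. The 8 became 5 without WT CD replicate 2 or WT HFD replicate 2 and 3 without WT HFD replicate 3.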

How the data were processed

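Polyadenylated RNA of 12 GWAT pools was sequenced. The authors deposited estimated counts per gene, merged over libraries, for all genes and for protein-coding genes. Per the labels' processing notes these came from Trim Galore 0.6.7, STAR 2.7.10a and Salmon 1.5.2 on GRCm38, whereas the study's methods name a human build. The identifiers are mouse, and 51948 of 55281 matched GENCODE M21. Deposited DESeq2 tables of fold changes and p-values were not used.

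Counts were rounded and tested with edgeR 4.0.16 (filterByExpr, TMM, quasi-likelihood F test, Benjamini-Hochberg adjustment over all tested genes, threshold 0.05) in 1 fit of 11 libraries with 1 coefficient per group. WT CD replicate 3 was left out, as in the deposited comparisons. Standard errors are the log2 fold change divided by the root of F. The CPM shown were scaled over all 12 libraries. DESeq2 1.42.0 (R 4.3.3) and other filters, scalings and sets of libraries were alternatives. The ratio to macrophage markers was taken without a prior, a choice made after values with a prior of 1 CPM had been seen. Replicate numbers were taken as pairs where every same-numbered pair of the groups compared correlated above 0.1 in deviations from group means, which held for the diet in HoipA-KO (3 of 3 pairs). Only the edgeR fit was tried on simulated counts, for the genotype comparison on CD. Depth sets a floor of 3 counts.

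Members and lists were chosen with earlier results of these data known. Named are all receptors, the 4 largest called changes on CD in each list, and the 5 genes most correlated with Clec4d (log2 CPM with a prior of 1, mean of at least 10 CPM). One gene of the signaling list is counted there but not reported here by itself. Sequences are RefSeq windows.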

Additional observations from a re-analysis of the deposited data

Results flagged for a closer look

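For 5 receptors the genotype difference differed between the diets by the interaction term of edgeR's quasi-likelihood test. The difference on HFD minus that on CD (log2) was −3.94 for Clec7a, −3.23 for Clec12a, −2.90 for Clec4a2, −2.57 for Clec4a3 and −1.56 for Clec4a1, beside 3.58% of all genes called in that direction. The calls depended on which libraries were fitted. None of the 5 passed in 7 of the 11 fits that left out 1 library. None passed without the 2 libraries rich in epididymal RNA, and 3 passed with the replicate block. With all 12 libraries the same 5 passed, and DESeq2 called 7 of the 8 receptors. In the fits that left out 1 library the values of the 5 stayed negative, from −4.32 to −3.15 for Clec7a and from −1.74 to −1.16 for Clec4a1. In each of the 5 receptors the HoipA-KO level differed little between diets while the WT level was higher on HFD. Summed macrophage markers followed the same course, from 316 to 511 CPM in WT CD to 1184 to 3562 CPM in WT HFD and from 4766 to 5322 CPM in HoipA-KO CD to 4337 to 5872 CPM in HoipA-KO HFD. The part of macrophage content in these results was not tested.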

How the results depend on the processing

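On CD the count of receptors called stayed at 7 or 8 of 8 in every alternative run. On HFD it was 3, beside 4.2% of all genes called higher. It became 1 with all 12 libraries (0.531% of all genes) and 8 with DESeq2 (12.9% of all genes). It became 6 with scaling by library size only, 5 with a filter of at least 10 counts in every library and 5 with the replicate block. The share over all genes is not given for these other settings, so a changed count there need not be particular to the receptors. The same holds with the 2 libraries richest in epididymal RNA left out, an alternative chosen after seeing the data. There the count of receptors was 4 on HFD, 3 for the diet in WT and 0 for the interaction. For the interaction the count was 5 with all 12 libraries and 7 with DESeq2. Fitting WT libraries alone gave 0 receptors and 0 genes of each list for the diet. Leaving out single libraries gave 7 to 8 receptors on CD, 0 to 5 on HFD, 4 to 6 for the diet in WT, 0 to 0 for the diet in HoipA-KO and 0 to 5 for the interaction. It gave 16 to 18, 0 to 12 and 9 to 12 adaptor and signaling genes (CD, HFD, diet in WT), 10 to 14, 0 to 10 and 3 to 11 other lectin genes, and 11 to 14, 0 to 6 and 3 to 9 induced genes.

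For the lists on HFD, all 12 libraries gave 4 adaptor and signaling genes, 2 other lectin genes (both lower) and 1 induced gene. DESeq2 gave 11, 11 and 8, counted in either direction. Over all genes DESeq2 called 4455 on HFD in either direction, against 2179 by edgeR over 11 libraries. The list counts are therefore not changes of the lists alone. Shares over all genes are not given for the settings that follow. The filter of 10 counts gave 7, 1 and 4 induced genes on CD, on HFD and for the diet in WT. Without the 2 libraries rich in epididymal RNA, 13 signaling and 7 induced genes passed on HFD, and 3 other lectin and 4 induced genes for the diet in WT. With 3 macrophage markers the ratio of Clec4e turned to −0.47, that of Clec4a2 to −0.63 and that of Clec12a to −0.37. With a prior of 1 CPM, the version computed first and replaced after its values were seen, the ratio of Clec4e was −1.60 instead of 0.76, Clec4n (−1.33) no longer overlapped between the genotypes and Clec4a2 (0.45) did. With all 12 libraries the median over all genes moved to −0.21 on CD. The cause of these changes was not tested. The settings also differ in how many genes are tested and how many libraries are fitted.

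Of 15 same-numbered pairs of libraries, 6 correlated above 0.1 in their deviations from group means (range −0.37 to 0.50). Of 30 differently numbered pairs 8 did so too (range −0.51 to 0.43). HoipA-KO CD replicate 3 and HoipA-KO HFD replicate 1 were among these at 0.25, so the numbers need not mark true pairs. All 3 same-numbered pairs of HoipA-KO CD and HFD lay above 0.1 (0.14 to 0.50). For the diet in HoipA-KO the numbers were therefore taken as pairs, and a fit of these libraries alone with the replicate block, added after seeing the data, called 0 of 16826 genes and 0 receptors by edgeR (1300 genes and 1 receptor, Clec7a, at an unadjusted p under 0.05). In the other comparisons libraries shared only a number. With the replicate as a block, 5 receptors and 5 induced genes passed on HFD and 3 receptors in the interaction. Low counts limit Clec4e most, with 6 counts in its lowest library.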
